A study of Mus musculus with 6 samples.

Results

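BMP receptors and their immediate targets were described as 10 genes of the 24568 in a pooled single-cell RNA sequencing matrix of fetal mouse intestine. They were found by symbol: the receptors Bmpr1a, Bmpr2 and Acvr1, the targets Id1, Id2, Id3, Smad6 and Smad7, and the homeobox targets Msx1 and Msx2. Small intestine came from Pdgfra-H2BGFP mice of the C57/BL6 strain, in which a nuclear green fluorescent protein is driven by the Pdgfra locus, and all groups shared this line. Animals were pooled as replicates, 4 of age E13.5 and 3 of age E14.5, while 2 replicates stood for every later age (E15.5, E16.5, E18.5). Pieces 2.5 mm long were marked with lipid-bound barcodes (MULTI-seq). The labels list 6 samples in 4 groups, with 2 lanes of all cells and 1 lane of enriched cells for E13.5, E14.5 and E18.5 together, and the same for E15.5 and E16.5. Per the protocol, live cells were DAPI-negative and Ter119-negative, and enriched cells carried CD31, CD45, Epcam or a high PDGFRA GFP signal.

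Bone morphogenetic proteins (BMPs) bind a complex of type I receptors, among them Bmpr1a and Acvr1, and type II receptors, among them Bmpr2. The type I kinase phosphorylates Smad1, Smad5 and Smad9, which enter the nucleus with Smad4 and turn on early targets, above all the Id genes, and the inhibitory Smads, which damp the signal. In fetal gut the subepithelial mesenchyme with a high Pdgfra level is a known source of BMP ligands.

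Promoter windows are shown for 3 targets whose highest level fell in the same cell cluster within each ending, Id2, Id3 and Smad6, and for Msx1, which was almost absent. They are the 250 bases before the start of the RefSeq gene in build GRCm38.p6, 5′ to 3′ on the gene's strand. Capitals mark GGCGCC, a GC-rich Smad-binding element, and GTCT or its reverse complement AGAC, the Smad box. Id2 lies at chr12:25096093-25096342 on the minus strand, Id3 at chr4:136143572-136143821 on the plus strand, Smad6 at chr9:64022060-64022309 on the minus strand and Msx1 at chr5:37824586-37824835 on the minus strand.
Id2: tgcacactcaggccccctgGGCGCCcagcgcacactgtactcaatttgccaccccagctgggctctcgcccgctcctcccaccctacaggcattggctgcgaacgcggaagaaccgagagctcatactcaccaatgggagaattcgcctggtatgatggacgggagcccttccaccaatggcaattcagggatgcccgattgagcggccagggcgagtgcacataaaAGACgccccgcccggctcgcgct
Id3: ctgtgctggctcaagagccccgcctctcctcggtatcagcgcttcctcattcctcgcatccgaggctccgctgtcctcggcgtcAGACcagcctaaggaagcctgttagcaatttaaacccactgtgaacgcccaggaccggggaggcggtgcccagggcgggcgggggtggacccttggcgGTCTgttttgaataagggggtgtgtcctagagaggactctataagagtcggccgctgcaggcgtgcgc
Smad6: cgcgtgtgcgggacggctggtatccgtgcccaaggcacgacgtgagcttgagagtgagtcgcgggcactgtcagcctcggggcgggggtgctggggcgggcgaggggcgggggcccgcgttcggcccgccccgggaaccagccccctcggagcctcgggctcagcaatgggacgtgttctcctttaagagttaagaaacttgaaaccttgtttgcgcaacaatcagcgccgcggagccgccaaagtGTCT
Msx1: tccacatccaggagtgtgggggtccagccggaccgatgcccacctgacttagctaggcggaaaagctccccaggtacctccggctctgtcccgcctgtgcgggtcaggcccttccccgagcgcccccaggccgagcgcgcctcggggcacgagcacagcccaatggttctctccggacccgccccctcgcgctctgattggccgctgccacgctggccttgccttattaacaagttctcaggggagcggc

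The promoter table held windows for 8 of the 10 genes, all but Id1 and Smad7. Both strands were searched. GGCGCC occurred once in Id2, at position -231 from the start, once in Bmpr1a and once in Bmpr2, and 9.59% of all 32851 windows held it. GTCT or AGAC occurred in 82.9% of all windows, with 1 match in Id2, 2 in Id3, 1 in Smad6, 1 in Acvr1 and 1 in Msx2. The palindrome GTCTAGAC, which holds both of the last motifs, was in 0.167% of windows and in none of these 8. A match describes the letters of a window and was not tested as a binding site.

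The deposited barcodes end in 6 suffixes that no label explains, so cells could not be placed in a sample, age or segment. The matrix was treated as 1 sample, no test across samples was possible, and each interval given has a level of 95% and covers only counting error. The suffixes split it into technical sets called A1, A2 and A3 (1 ending) and B1, B2 and B3 (the other ending). Filters left 12630 of 13127 cells, with median depths of 12121, 13574 and 7070 unique molecular identifiers (UMIs) in A1, A2 and A3 and of 4182, 4118 and 3548 in B1, B2 and B3. Between sets, 22 barcode sequences were shared. CPM is a gene's UMIs over all UMIs of the cells named, on the usual counts-per-total scale, and a thinned share is the percentage of cells with at least 1 UMI of the gene after each of 12589 cells was reduced to 2000 UMIs.

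Clusters were built without the BMP genes and named from markers. A cluster was called PDGFRA-high-like mesenchyme where Pdgfra and other markers of that class, at least 3 in all, were 2-fold or more above the rest of the ending. These cells made up 2.11%, 1.92% and 87.3% of A1, A2 and A3, and 12.4%, 14.4% and 73.6% of B1, B2 and B3. Pdgfra itself stood at 173, 129 and 939 CPM in A1, A2 and A3 and at 105, 113 and 408 CPM in B1, B2 and B3. Other mesenchyme made up 84.4% and 84.4% of A1 and A2 but 54 cells of A3, and 67.5% and 66.0% of B1 and B2 but 130 cells of B3. Unnamed clusters held 8.16% to 20.4% of a set, and no cluster was named epithelial, endothelial or immune. The comparison of A3 with A1 and A2, or of B3 with B1 and B2, therefore compares sets of different cell makeup. In pooled UMIs, more cells of a type and more RNA per cell cannot be told apart, and values within a class are given beside the ratio of each receptor and target.

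Other cell types moved with the same sets. All 6 epithelial markers were higher in A3 than in A1 and A2, with a sum of 255 against 35.7 CPM, and all 6 in B3, with 72.4 against 26.1 CPM. Epcam was at 87.7 CPM in A3 and 29.6 CPM in B3, and none of the list was at 0. All 5 endothelial and all 5 immune markers were also higher in both, with sums of 44.9 to 77.3 CPM. Erythroid markers summed to 3711 CPM in B3 against 1823 CPM in B1 and B2. All 6 cycling markers were lower in A3 and B3, and 20.6% and 9.46% of their thinned cells held an Mki67 or Top2a UMI against 30.9% to 45.9% in the other sets. The summed level of the 7 targets was 1.53 higher on the log2 scale in A3 than in A1 and A2, 1.56 in cells with no Epcam or Cdh1 UMI and 1.73 in cells with no Mki67 or Top2a UMI. In ending B it was 1.36, and 1.24 in cells with no Mki67 or Top2a UMI. The value of ending B in cells with no Epcam or Cdh1 UMI is not given here. The part of endothelial, immune and erythroid RNA in these values was not tested.

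The receptors differed in how far they varied. Bmpr1a, a type I receptor, stood at 69.7, 63.2 and 71.8 CPM in A1, A2 and A3 and at 66.5, 66.8 and 77.1 CPM in B1, B2 and B3. Its intervals in A3 (66.5 to 77.5 CPM) and A1 (66.8 to 72.8 CPM) overlapped, and that of A2 (60.3 to 66.2 CPM) lay below both. The log2 ratio of A3 to A2 alone was 0.18 (0.054 to 0.31), and that of A3 to A1 alone was 0.042 (-0.085 to 0.17). The log2 ratio of A3 to A1 and A2 was 0.11 (-0.012 to 0.23), and that of B3 to B1 and B2 was 0.21 (0.072 to 0.35). Within PDGFRA-high-like cells they were 0.011 (-0.39 to 0.43) and 0.055 (-0.21 to 0.33), and within other mesenchyme 0.36 (-0.041 to 0.73) and 0.48 (0.11 to 0.82). Thinned shares of 11.6% to 14.5% in the 6 sets gave the same narrow range.

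Bmpr2, a type II receptor that phosphorylates the type I kinase, was the member receptor with the widest range. It stood at 71.4, 71.7 and 190 CPM in A1, A2 and A3 and at 52.5, 50.1 and 116 CPM in B1, B2 and B3. Sets A3 and B3 lay above the others of their ending with no overlap of intervals, and A1 and A2 did not differ beyond theirs, nor did B1 and B2. The log2 ratio was 1.41 (1.33 to 1.49) in ending A and 1.18 (1.05 to 1.31) in ending B. Within PDGFRA-high-like cells it was 0.36 (0.10 to 0.62) and 0.56 (0.33 to 0.80). Acvr1, the other type I receptor among the members, stood at 19.7, 20.2 and 36.5 CPM in A1, A2 and A3 and at 23.0, 21.8 and 39.4 CPM in B1, B2 and B3. Its ratios were 0.87 (0.69 to 1.05) and 0.82 (0.61 to 1.02). Within PDGFRA-high-like cells the interval of the Acvr1 ratio held 0 in both endings, at 0.043 (-0.49 to 0.63) and -0.033 (-0.39 to 0.34).

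A cell needs a type I and a type II receptor to answer BMP, and the members hold only some of each. Bmpr1b, Acvrl1, Acvr2a and Acvr2b, of the further pathway genes described below, were not counted here. The shares given here describe detection of the members and do not measure which cells can answer BMP. At matched depth a type I receptor (Bmpr1a or Acvr1) and Bmpr2 were both detected in 2.52%, 2.07% and 7.50% of cells of A1, A2 and A3 and in 1.69%, 1.56% and 4.92% of B1, B2 and B3. At full depth these shares were 37.7%, 39.9% and 39.7% in ending A and 7.16%, 6.60% and 12% in ending B. At full depth A3, the shallowest set of its ending, no longer stood above A1 and A2. Detection of Bmpr1a and Bmpr2 in the same cell had an odds ratio of 1.04 within set and class.

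**Figure D1:**
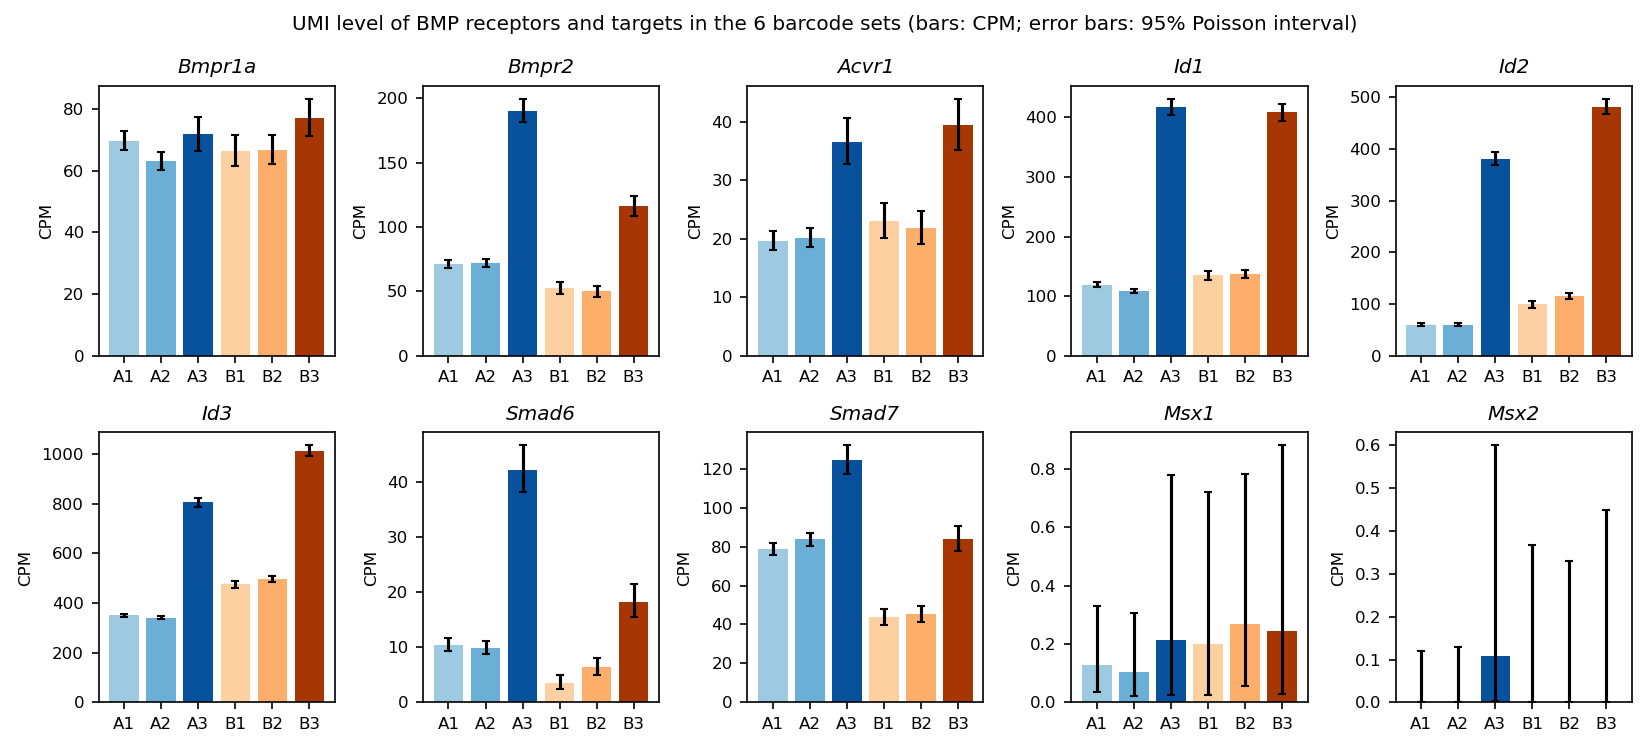
Bars give the UMI level in CPM of each of the 10 genes in the 6 barcode sets, with 95% Poisson intervals for counting error. Bmpr1a is nearly level across the sets, Bmpr2 and the Id genes stand highest in A3 and B3, and Msx1 and Msx2 stay below 1 CPM.

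The Id genes encode inhibitors of basic helix-loop-helix factors and are the classic early BMP targets. Id1 stood at 119, 109 and 418 CPM in A1, A2 and A3 and at 135, 137 and 408 CPM in B1, B2 and B3. Id2 stood at 60.6, 60.3 and 382 CPM in A1, A2 and A3 and at 99.5, 116 and 482 CPM in B1, B2 and B3. Id3 stood at 351, 341 and 806 CPM in A1, A2 and A3 and at 476, 496 and 1014 CPM in B1, B2 and B3. For each of the 3 genes A3 and B3 were the highest sets of their ending, far outside the intervals of the others. The log2 ratios in ending A were 1.87 (1.81 to 1.93) for Id1, 2.66 (2.59 to 2.73) for Id2 and 1.22 (1.18 to 1.26) for Id3. In ending B they were 1.58 (1.51 to 1.66), 2.16 (2.08 to 2.23) and 1.06 (1.02 to 1.10). The thinned share of cells with an Id2 UMI went from 10.1% and 10.0% in A1 and A2 to 43.4% in A3, and from 14.4% and 16.9% in B1 and B2 to 49.3% in B3.

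Within PDGFRA-high-like cells alone these gaps were smaller. The ratio of Id1 was 0.14 (-0.027 to 0.31) in ending A and 0.24 (0.13 to 0.36) in ending B. Id2 kept the widest gap, at 0.56 (0.37 to 0.76) and 0.39 (0.28 to 0.50). Id3 was lower in A3, at -0.18 (-0.29 to -0.069), and stood at 0.075 (0.0043 to 0.15) in B3. The cells behind the A1 and A2 side of this comparison were 52 and 40. The largest PDGFRA-high-like cluster was the same in A1, A2 and A3 (23, 23 and 674 cells), and it was the same in B1, B2 and B3 (191, 235 and 905 cells). The mix of clusters still differed between sets. In ending A the cluster highest in Id2 held 23 of 52, 23 of 40 and 674 of 1027 PDGFRA-high-like cells of A1, A2 and A3. In ending B the cluster highest in Id2 held 82 of 273, 127 of 362 and 707 of 1612 of B1, B2 and B3. The part of this mix in the ratios within the class was not tested.

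Smad6 and Smad7, the inhibitory Smads that block the receptor and the receptor-activated Smads, were also higher in A3 and B3. Smad6 stood at 10.5, 9.89 and 42.2 CPM in A1, A2 and A3 and at 3.59, 6.34 and 18.3 CPM in B1, B2 and B3. Its log2 ratio was 2.05 (1.86 to 2.23) in ending A, from 392 against 608 UMIs, and 1.86 (1.49 to 2.23) in ending B. Smad7 stood at 78.7, 83.8 and 125 CPM in A1, A2 and A3 and at 43.7, 45.2 and 84.0 CPM in B1, B2 and B3. Its ratios of 0.62 (0.52 to 0.71) and 0.92 (0.77 to 1.06) did not reach 2-fold as estimates. Within PDGFRA-high-like cells Smad7 was at -0.088 (-0.37 to 0.21) and 0.081 (-0.15 to 0.32), and Smad6 at 0.26 (-0.25 to 0.82) in ending A and 0.96 (0.34 to 1.62) in ending B.

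Msx1 and Msx2, homeobox targets of BMP in limb and craniofacial mesenchyme, were near the limit of detection. Msx1 gave 16 UMIs in 16 of 12630 cells (0.127%, Clopper-Pearson interval 0.072% to 0.206%), spread over all 6 sets with 2 to 4 UMIs each. Msx2 gave 1 UMI, in A3. In the 5 sets with no Msx2 UMI, a count of 0 allows a share of cells with a UMI of up to 0.119% to 0.144% when set at 3 cells of the set, and of up to 0.147% to 0.177% by the Clopper-Pearson interval. No ratio was formed for either gene.

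Over the 10 genes, 8 reached the 20 CPM required on 1 side in ending A, and 5 of them (Bmpr2, Id1, Id2, Id3 and Smad6) were at least 2-fold higher in A3, against a background of 9.64% of 7417 genes. In ending B 7 reached it, and 4 of them (Bmpr2, Id1, Id2 and Id3) were at least 2-fold higher in B3, against 8.64% of 6410 genes. None was 2-fold lower in A3 or B3, where the background was 5.65% and 5.38%. The median log2 ratio of the tested members was 1.32 in ending A and 1.06 in ending B, and that of all tested genes was -0.048 and 0.12. Within PDGFRA-high-like cells alone, 0 members were 2-fold apart in either ending. The background there was 2.01% higher and 0.898% lower in A3, and 0.475% higher and 0.327% lower in B3.

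In other mesenchyme, Id1 and Id3 were lower in A3 but higher in B3 than in the other sets of their ending. In A3 they had 61.1 CPM of Id1 (44.0 to 82.5, from 42 UMIs) against 103 and 99.3 CPM in A1 and A2. In B3 they had 250 CPM of Id1 (216 to 288, from 192 UMIs) against 64.4 and 67.3 CPM in B1 and B2. Id3 ran likewise, with 158 CPM in A3 against 321 and 325 CPM, and 691 CPM in B3 against 313 and 337 CPM. The count past 2-fold in this class was 1 member in ending A, Id3, which was lower in A3, against a background of 1.65% lower and 3.5% higher. In ending B it was 3 members, Id1, Id2 and Id3, all higher in B3, against a background of 8.93% higher and 2.52% lower. The other genes with an interval clear of 0 in both endings were higher in both: Bmpr2 at 0.65 (0.31 to 0.98) and 0.99 (0.61 to 1.35), and Smad7 at 0.41 (0.050 to 0.75) and 0.83 (0.39 to 1.24). Id2 was at 0.33 (-0.12 to 0.75) in ending A and 2.36 (2.13 to 2.58) in ending B. These values rest on 54 cells of A3 and 130 of B3. The cells also come from other clusters: the largest group among those of A3 was a mitotic cluster (12 cells) and of B3 another mitotic cluster (43 cells), where A1 and A2 had most in a cluster led by Sptssb and Dab1 (404 and 340 cells) and B1 and B2 in one led by Ogn and Cxcl13 (590 and 716 cells).

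**Figure D2:**
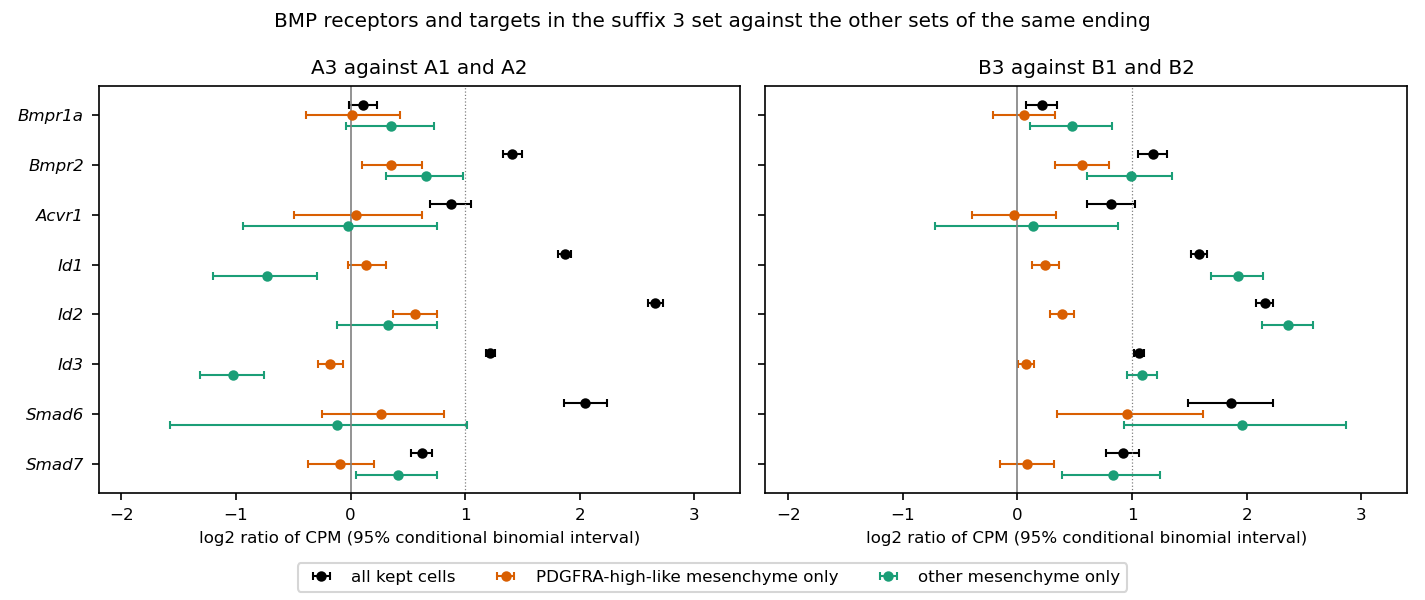
Points give the log2 CPM ratio of A3 to A1 and A2 (left) and of B3 to B1 and B2 (right) for 8 genes, with 95% conditional binomial intervals, over all kept cells, PDGFRA-high-like cells only and other mesenchyme only. The dotted line marks 2-fold, and the ratios within PDGFRA-high-like cells run from -0.18 for Id3 in ending A to 0.96 for Smad6 in ending B, while those over all cells reach 2.66 for Id2.

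Classes were then compared inside each set, which keeps ending and suffix equal. Depth per cell of each class inside a set is not given here. Over all sets pooled, the median was 3812.5 UMIs in PDGFRA-high-like and 7820 UMIs in other mesenchymal cells. Of 3366 PDGFRA-high-like cells, 1027 came from A3 and 1612 from B3, the shallowest set of each ending. The value given is the median over the 6 sets of the log2 ratio of PDGFRA-high-like to other mesenchyme. It was 2.67 for Id2 (1.03 in B3 to 3.08 in B1), 2.24 for Id1 (0.83 in B3 to 2.84 in A3) and 1.62 for Id3 (0.63 in B3 to 2.41 in A3). Smad6 had a median of 2.08 (0.58 to 2.52) and Smad7 one of 0.85 (0.34 to 1.52). Among receptors, Acvr1 had 1.08 (0.84 to 1.26), Bmpr2 0.95 (0.55 to 1.53) and Bmpr1a -0.14 (-0.32 to 0.26). For the Id genes and Smad6 the narrowest gap was in B3, where the other mesenchyme held 250 CPM of Id1 and 276 CPM of Id2.

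As estimates, all of these genes except Bmpr1a were higher in PDGFRA-high-like cells in 6 of 6 sets, and Bmpr1a was higher in 2. The interval held 0 for Smad6 in B2 (-0.024 to 1.92) and B3 (-0.27 to 1.57). It also held 0 for Acvr1 in A2 (-0.080 to 1.63) and Smad7 in A3 (-0.0070 to 0.72). Past 2-fold were 5 of 8 genes (Acvr1, Id1, Id2, Id3 and Smad6), against 8.97% of 7004 genes, and 0 were 2-fold lower, against 8.55%. With cells split instead at the top 10% of each set by Pdgfra UMIs over all UMIs, 0 of the genes passed 2-fold, against 1.85% of genes higher and 1.97% lower. The medians were 0.68 for Id2, 0.41 for Id1 and 0.16 for Id3. This split cuts across the classes in 4 sets, since PDGFRA-high-like cells made up 87.3% of A3 and 73.6% of B3 but 2.11% and 1.92% of A1 and A2. Most such cells of A3 and B3 thus fell in the rest. In those 4 sets the split cannot repeat the class comparison. In B1 and B2 PDGFRA-high-like cells made up 12.4% and 14.4%, near the cut of 10%. Values of this split for single sets are not given here. At matched depth over all sets, Id1 was detected in 46.1% (44.4% to 47.8%) of PDGFRA-high-like and 13.1% (12.3% to 13.9%) of other mesenchymal cells. For Bmpr1a these shares were 13.9% (12.8% to 15.1%) and 12.3% (11.6% to 13.1%). Epithelial markers summed to 160 CPM in PDGFRA-high-like cells and 34.8 CPM in other mesenchyme. No class in these data is known to lack the Id genes or the receptors, so the level that free RNA alone gives was not measured.

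Single clusters of at least 50 cells showed the spread inside these classes. Of 26 such clusters, 16 were in ending A and 10 in ending B. Endings were clustered apart. In each, 1 PDGFRA-high-like cluster had the highest estimate of the same 5 genes: in A the one led by Slco2a1 and Npnt (720 cells, 93.6% from A3) and in B the one led by Npnt and Ankrd63, with Slco2a1 among its top 10 genes (916 cells, 77.2% from B3). They held 284 and 151 CPM of Bmpr2, 613 and 737 CPM of Id2, 907 and 1088 CPM of Id3, 73.0 and 25.1 CPM of Smad6, and 181 and 116 CPM of Smad7. The cluster of ending A also had 6 of 6 epithelial markers at 4-fold or more above the rest, and that of ending B had under 2 of any other lineage. The part of epithelial RNA in these levels was not tested. Next in order for Id2 was 252 CPM (206 to 305) in ending A and 393 CPM (375 to 411) in ending B, well below it. For Id3 the next cluster of ending A, an unnamed one led by Cd74 and H2-Aa with cycling markers raised, had 898 CPM (869 to 928), which did not differ beyond the interval of the first, 880 to 934 CPM. The intervals of the first and second clusters also overlapped for Id3 in ending B, for Smad6 in both endings and for Bmpr2 in ending A.

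Id1 did not single that cluster out in ending A. There it was at 477 CPM (448 to 508) in a PDGFRA-high-like cluster led by Aplnr and at 470 CPM (451 to 490) in the Slco2a1 cluster, with overlapping intervals. In ending B the Npnt cluster led with 494 CPM (470 to 520). The lowest Id1 levels were 31.2 CPM (25.0 to 38.5) in the cluster of A led by Dpt and Aspn and 20.1 CPM (16.5 to 24.3) in the one of B led by Ogn and Cxcl13, which gave ranges of 15.3-fold and 24.6-fold over clusters. Bmpr1a ranged over 1.90-fold and 1.65-fold only, and its highest clusters (96.0 CPM in A and 85.1 CPM in B) were both other mesenchyme.

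**Figure D3:**
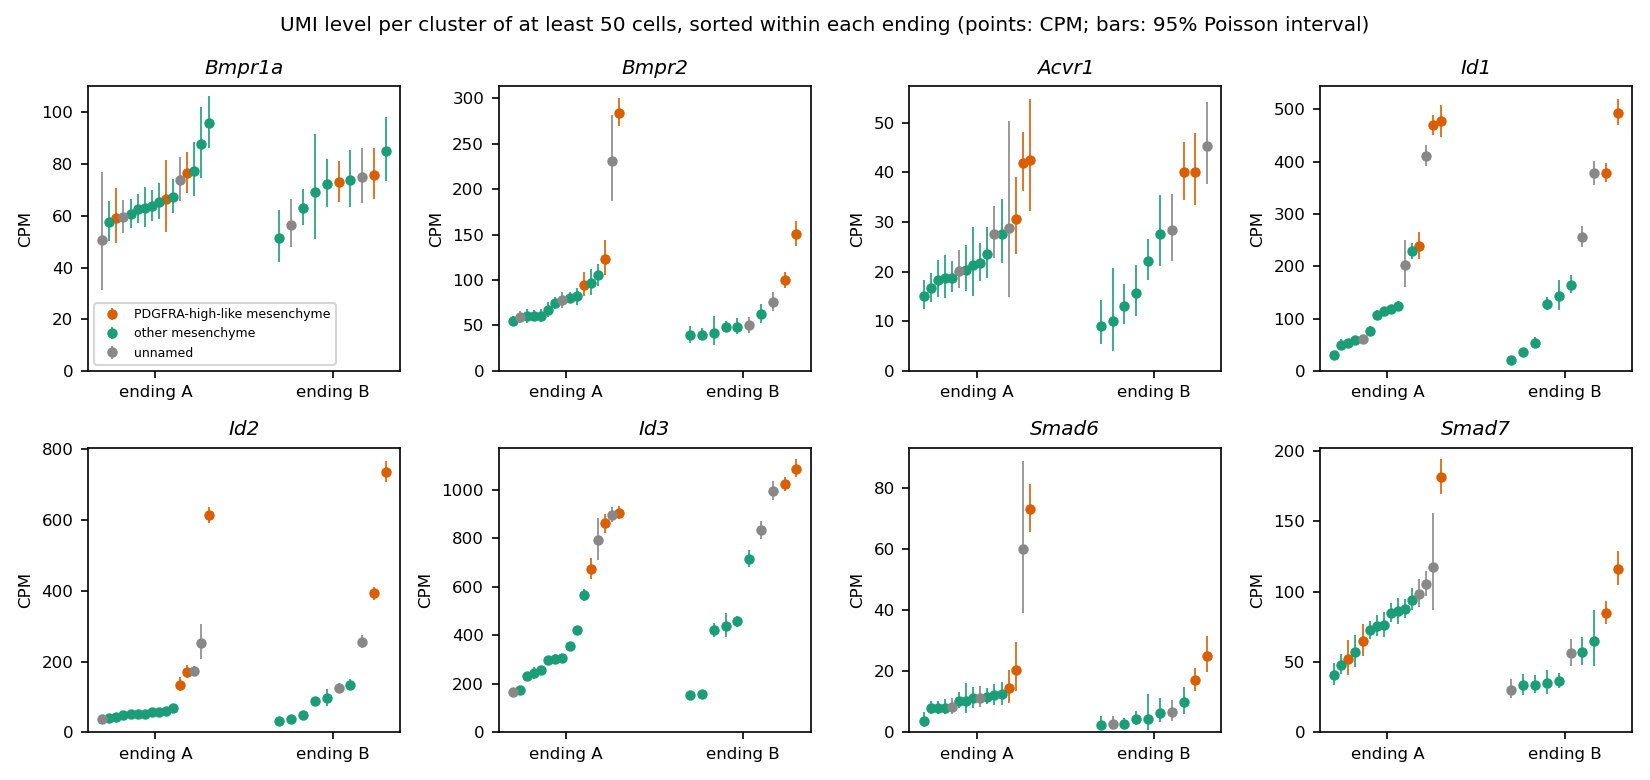
Each point is a cluster of at least 50 cells with its CPM and 95% Poisson interval, sorted within each ending, and coloured by class. For Id2 the highest cluster is PDGFRA-high-like in both endings (613 and 737 CPM), while Bmpr1a shows no order by class.

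Bmp4 and Bmp2 are ligands of these receptors, and both were detected in these cells. Thinned shares of cells with a Bmp4 UMI were 52.1%, 47.2% and 77.0% in A1, A2 and A3 and 66.6%, 69.2% and 86.9% in B1, B2 and B3. For Bmp2 they were 3.38%, 2.55% and 38.2% in ending A and 9.52%, 10.4% and 37.3% in ending B. Co-detection was described by an odds ratio pooled over the sets (Mantel-Haenszel): the odds of a member's UMI in cells with a ligand UMI over those in cells without. The odds ratio holds sets equal. The shares of cells given beside it are over all sets together, so they do not yield the same ratio.

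With Bmp4 the odds ratios were 1.73 for Id3, 1.56 for Id1 and 1.54 for Id2, at percentiles 99.5, 99.0 and 98.8 of 8555 genes. Smad6 had 1.29, Acvr1 1.14, Bmpr2 1.13, Smad7 1.12 and Bmpr1a 1.06, and the median of all genes was 1.00. None of the 8 genes detected often enough reached 2, against 0.187% of all genes. Over all sets together, Id3 was detected in 59.7% (58.6% to 60.7%) of 8254 cells with Bmp4 and in 39.8% (38.3% to 41.2%) of 4335 cells without. When class was held equal too, the odds ratios were 1.46 for Id3, 1.31 for Id1 and 1.25 for Id2, at percentiles 99.5, 98.0 and 96.2, and 1.13 or less for the other 5 genes. Again none reached 2, against 0.0117% of genes.

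Each class was also taken alone. In other mesenchyme the odds ratio of Id1 with Bmp4 was 1.44, with 14.6% (13.6% to 15.8%) of 3912 cells with Bmp4 and 11.1% (10.1% to 12.3%) of 3239 cells without. In PDGFRA-high-like cells it was 1.07, with 46.3% (44.5% to 48.2%) of 2889 cells with Bmp4 and 44.5% (39.9% to 49.2%) of 456 without. Id3 had 1.49 in other mesenchyme and 1.31 in PDGFRA-high-like cells, and Id2 had 1.22 and 1.28. The difference between classes was not tested.

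In other mesenchyme, Id1 and Id3 detection was higher in cells with more Bmp4 UMIs. The sets of an ending were pooled in these shares, whereas the odds ratios above hold sets equal. Id3 was detected in 32.8%, 41.0%, 45.3% and 51.4% of cells of ending A with 0, 1, 2 and at least 3 Bmp4 UMIs, from 1968 cells down to 249. In ending B the shares were 32.8%, 37.9%, 38.9% and 50.5%. Id1 followed from 12.9% to 25.3% in ending A and from 8.42% to 15.7% in ending B, with intervals of the first and last steps apart in both endings. Id2 went from 8.23% to 9.64% in ending A, with overlapping intervals. In ending B it stood at 8.10%, 8.60% and 8.75% with 0, 1 and 2 Bmp4 UMIs, and at 16.2% of 364 cells with at least 3. Other mesenchyme of B3 held 808 CPM of Bmp4, against 521 and 531 CPM in B1 and B2. It held 276 CPM of Id2, against 47.9 and 59.1 CPM. The part of set makeup in these steps was not tested. In PDGFRA-high-like cells of ending A, Id1 stood at 47.7% with no Bmp4 UMI and 46.6% with at least 3, and in ending B at 41.5% and 47.7%. Id2 went from 40.9% to 49.1% in ending A and from 44.9% to 51.7% in ending B, with overlapping intervals. Id3 went from 72.7% to 76.1% in ending A, with overlapping intervals, and from 71.2% (65.0% to 76.9%) to 80.1% (77.5% to 82.6%) in ending B.

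**Figure D4:**
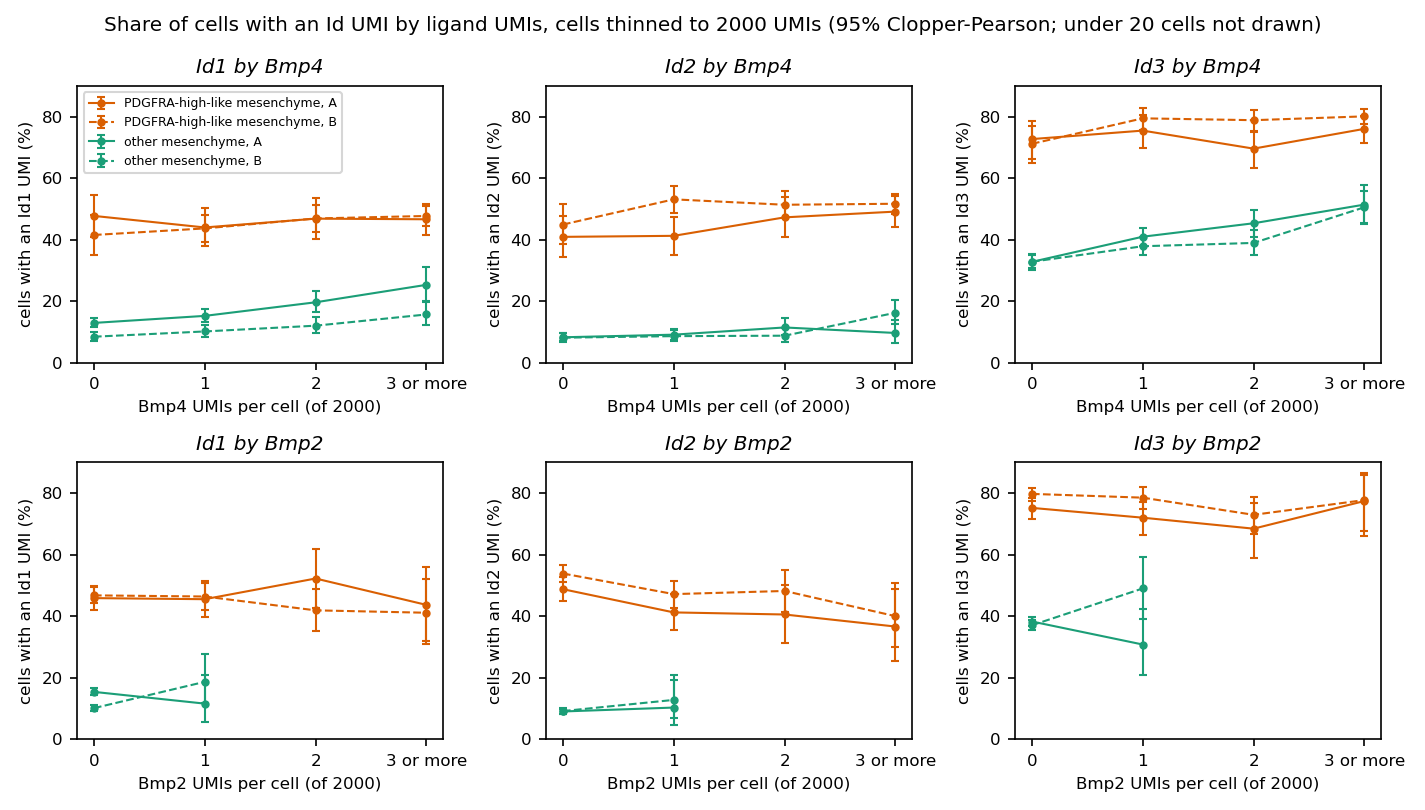
Lines give the percentage of cells with an Id1, Id2 or Id3 UMI by the number of Bmp4 (top) or Bmp2 (bottom) UMIs in the same cell. All cells were thinned to 2000 UMIs and the sets of an ending pooled, with 95% Clopper-Pearson intervals and points under 20 cells left out. In other mesenchyme the Id3 line climbs with Bmp4 from 32.8% to above 50% in both endings, and in PDGFRA-high-like cells it goes from 72.7% to 76.1% in ending A and from 71.2% to 80.1% in ending B.

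Bmp2 gave another picture. Over sets, the odds ratios were 1.48 for Id3, 1.38 for Id1 and 1.06 for Id2. With class held equal they were 0.91, 0.98 and 0.76, and Bmpr1a was at 0.78. The Bmpr1a value depended on the setting. It was 0.95 at a lower thinning depth, 0.92 at a higher one and 0.93 with no cell filter. Over all alternatives with class held equal, Bmpr1a ran from 0.74 to 0.95 and Id2 from 0.71 to 0.79. Id3 ran from 0.82 to 1.06 and Id1 from 0.81 to 1.05. Values for single classes are given at the main depth only. In PDGFRA-high-like cells alone (1286 with Bmp2 and 2059 without) they were 0.84 for Id3, 0.95 for Id1, 0.72 for Id2 and 0.70 for Bmpr1a. In other mesenchyme alone they were 1.12, 1.26, 1.22 and 1.17, from 208 cells with Bmp2 and 6943 without, and the intervals of the shares with and without Bmp2 overlapped for all 4 genes. Over sets and with class held equal, no tested member reached 2, against 0.222% and 0.0935% of 8552 genes. In these 2 forms none was at 0.5 or below, against 1.68% and 0.339%. In other mesenchyme alone Smad6 was at 0.37, detected in 0.48% (0.012% to 2.65%) of cells with Bmp2 and 1.38% (1.12% to 1.69%) without. Acvr1 was at 1.62 there, with 5.77% (3.02% to 9.86%) and 3.62% (3.19% to 4.08%). In PDGFRA-high-like cells, Id2 was detected in 48.8% (44.9% to 52.7%) of 654 cells of ending A with no Bmp2 UMI and in 36.6% (25.5% to 48.9%) of 71 cells with at least 3. In ending B it was 53.9% (51.2% to 56.5%) of 1405 cells and 40.0% (29.8% to 50.9%) of 90 cells. In ending B the intervals of these ends did not overlap, and in ending A they did. The sets of an ending were pooled in these shares too.

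**Figure D5:**
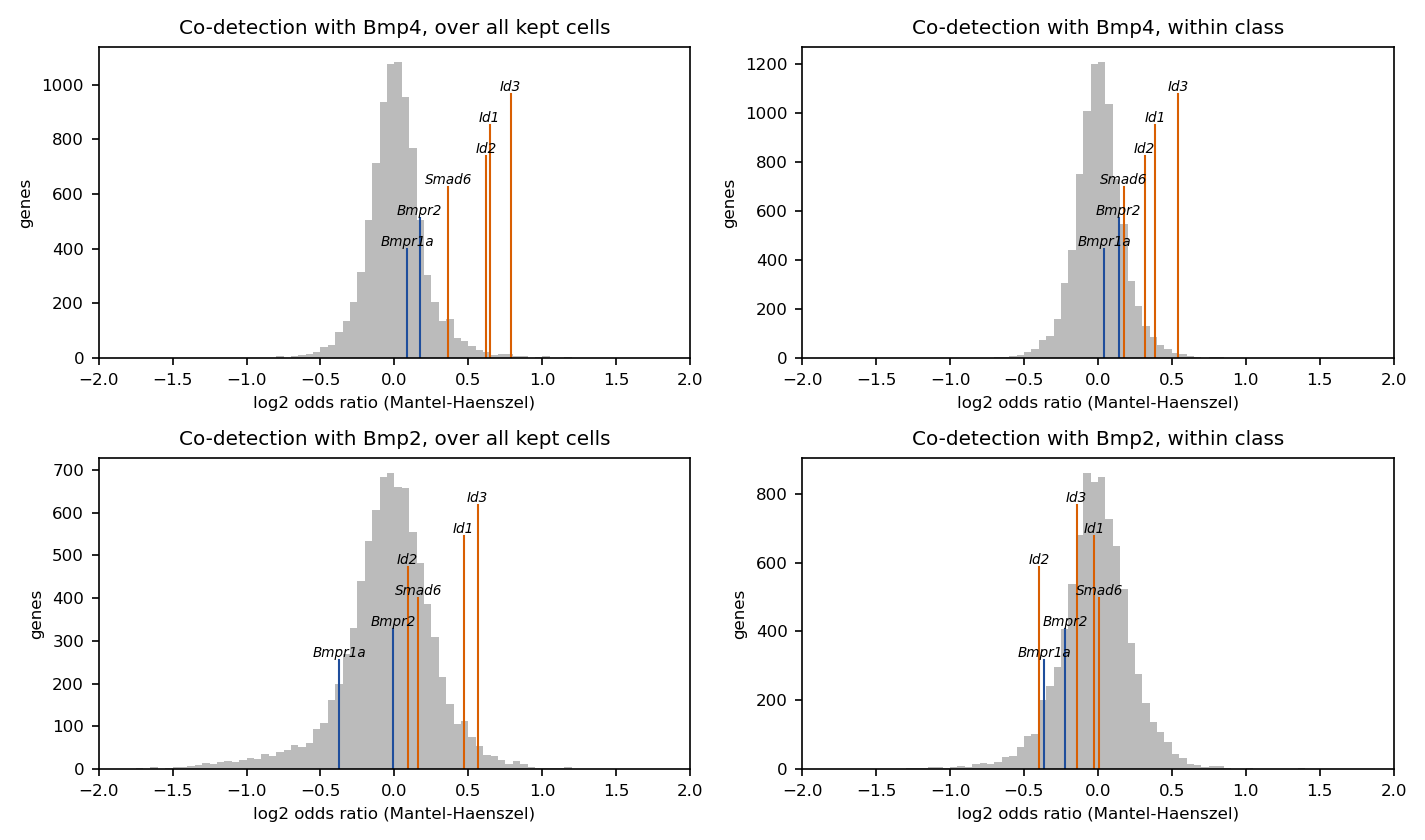
Histograms give the log2 odds ratio of co-detection with Bmp4 (top) and Bmp2 (bottom) for all genes detected in at least 2% of thinned cells, pooled over sets (left) and over sets and classes (right), with vertical lines at named genes. The Id genes lie in the right tail for Bmp4 in both panels, and within class they fall to or below the middle for Bmp2.

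Odds ratios between Id genes were above those of an Id gene with either ligand. Within set and class, the odds ratio of co-detection was 2.31 for Id1 with Id3, 2.07 for Id1 with Id2 and 1.79 for Id2 with Id3. Smad6 had 1.58 with Id2 and 1.47 with Id3, and Smad7 had 1.55 with Id2. Pairs of a receptor with an Id gene ran from 0.84 (Bmpr2 with Id1) to 1.24 (Bmpr2 with Id2). The genes most like Id1 among 5345, by the mean over 6 sets of Pearson's r across thinned cells of a set, were Id3 (0.28), Id2 (0.21) and Gm13889 (0.17). For Id3 they were Id1 (0.28), Adamdec1 (0.23) and Tcf4 (0.20), and for Id2 they were Id1 (0.21), Npnt (0.20) and Id3 (0.19). These are descriptions over cells that share libraries and classes. The highest mean r was 0.035 for Bmpr1a (with Uso1, then Fto and Tgfbr1) and 0.056 for Acvr1 (with Malat1, then Col6a4 and Adamdec1). It was 0.093 for Bmpr2 (with Npnt, then Malat1 and Plpp3) and 0.091 for Smad7 (with Id2, then Npnt and Foxq1). These 4 are too weak in sparse counts to be read.

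A list of 39 further BMP pathway genes was described in the same way. In the class comparison 22 of them were tested, and 12 were at least 2-fold higher and 1 at least 2-fold lower in PDGFRA-high-like cells. The background over all genes was 8.97% higher and 8.55% lower. As estimates, 13 were higher in 6 of 6 sets. The 3 largest medians were those of the ligands Bmp2 (3.76), Bmp3 (3.11) and Bmp5 (3.09). The 3 smallest were those of the co-receptors Rgma (-1.57) and Rgmb (-0.84) and of the signal transducer Smad1 (-0.90). In A3 against A1 and A2, 25 were tested, 13 were 2-fold higher and 2 were 2-fold lower, against 9.64% and 5.65% of all genes. In B3 against B1 and B2, 19 were tested and 10 were 2-fold higher, against 8.64% of all genes. These pathway counts are over all kept cells, of different class makeup. Among the transducers, chosen here after their values were seen, Smad9 was at 1.53 in the class comparison, Smad5 at -0.04 and Smad4 at -0.17.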

How the data were processed

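Unique molecular identifier (UMI) counts per gene and cell were taken as the authors deposited them, in 1 matrix of whole numbers for all samples, per the file headers. Per the submitters' processing notes, Cell Ranger 2.1.1, Seurat and the mm10 build were used, with roles not given in the sources used here. The lipid barcodes were not analysed here. Members and lists were chosen with earlier results of these data known, and the rule that names classes was set after seeing the data.

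Cells with under 1000 genes (108) or over 5% mitochondrial UMIs (367) were removed. Scrublet marked 60 doublets, 0.404% of cells in ending A and 0.501% in ending B, close to or under 0.5%, so doublets may remain. Clustering (scanpy 1.11.5, leidenalg 0.10.2, 2000 variable genes, 30 components, 15 neighbours, resolution 1) was done in each ending without 49 BMP genes. A cluster of another lineage needed 3 of that lineage's markers 4-fold above the rest, more than it had PDGFRA-high markers, with 1 in its top 10 genes, and other mesenchyme needed 3 mesenchyme markers above 100 CPM. Intervals were exact (scipy 1.17.1): Poisson for CPM, Clopper-Pearson for shares, conditional binomial for ratios. Library preparation and pooled replicates leave no spread between animals to measure, and no count model was fitted. Genes with 20 CPM on either side entered the 2-fold counts, and those in 2% of thinned cells the odds ratios.

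The text names all 10 members. Of 39 further pathway genes it names the 3 largest and 3 smallest class ratios among those with 20 CPM in a class, and for each member in at least 5% of thinned cells the 3 genes most correlated with it. In Poisson counts simulated for A3 against A1 and A2 (6605 genes, 200 changed), the direction was recovered for 100% of changed genes and the interval covered 95.0%. The interval is exact for such counts, so this coverage was fixed by the design. Clustering of UMIs within cells was not simulated, and its effect on the intervals was not tested. In simulated co-detection (2000 genes), the median odds ratio was 3.03 for a true 3. Alternatives were other cell filters, thinning depths, ligand thresholds, resolutions, single suffixes, single classes, per-cell means and sets left out.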

Additional observations from a re-analysis of the deposited data

Results flagged for a closer look

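In other mesenchyme, the direction of the suffix 3 set differed between the endings for Id1 and Id3, which is why both are singled out. For Id1 the log2 CPM ratio was -0.75 for A3 against A1 and -0.70 for A3 against A2, but 1.95 for B3 against B1 and 1.89 for B3 against B2. For Id3 it was -1.02 for A3 against A1 and -1.04 for A3 against A2, but 1.14 for B3 against B1 and 1.04 for B3 against B2. The difference between the endings was not tested. The A3 values rest on 42 UMIs of Id1 and 109 of Id3 in 54 cells, and the B3 values on 192 and 531 UMIs in 130 cells.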

How the results depend on the processing

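No paired analysis was possible because no file maps cells to samples, and the planned block by lane number was not run for that reason. For the summed targets in ending A (1.53 on the log2 scale), the mean of per-cell CPM gave 1.62, PDGFRA-high-like cells only 0.053 and other mesenchyme only -0.51, a reversal, and 2 settings added after seeing the data gave 1.56 (no Epcam or Cdh1 UMI) and 1.73 (no Mki67 or Top2a UMI). The count of 5 genes past 2-fold became 0 and 1 in those classes. In ending B (1.36) the values were 1.30 for per-cell means, 1.40 and 1.33 against B1 or B2 alone, 0.19 and 1.41 in those classes and 1.24 without Mki67 or Top2a UMIs, and the count of 4 became 0 in PDGFRA-high-like cells. The class count of 5 became 0 with the top 10% of Pdgfra. That split cuts across the classes in A1, A2, A3 and B3 and cannot repeat their comparison there. In B1 and B2 the share of PDGFRA-high-like cells was near the cut. Single genes reversed in PDGFRA-high-like cells (in ending A Id3 at -0.18 and Smad7 at -0.088, in ending B Acvr1 at -0.033) and in other mesenchyme of ending A (Acvr1 -0.023, Id1 -0.73, Id3 -1.03, Smad6 -0.12); the intervals of the Smad7, Smad6 and both Acvr1 values held 0. The cause was not tested. Leaving out each barcode set kept the class count at 5 to 5 and the 4 counts of odds ratios of at least 2 at 0 to 0. Another 40 single-gene values moved beyond their counting interval without a reversal, 81 did not, and of the alternatives to the main results 14 moved, 1 reversed and 73 did neither. Precision is limited by depth in ending B and by few PDGFRA-high-like cells in A1 and A2.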
